A study of Homo sapiens with 6 samples.

Results

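SQSTM1 (p62), NBR1, OPTN, CALCOCO2, TAX1BP1, MAP1LC3B, GABARAP, GABARAPL1, GABARAPL2 and WIPI1 are described here, the genes of 5 autophagy receptors, 4 ATG8 family proteins and 1 lipid-binding protein of the autophagosome. They were chosen by gene symbol, and all 10 have a row among the 22925 genes of the deposited table. Polyadenylated RNA was sequenced from HT-1080, a cell line established from a human fibrosarcoma. Both groups were kept in 1% DMSO for 48 h, 3 libraries with 20 μM PhenDC3 added and 3 without it. PhenDC3 is a ligand of G quadruplexes, folded structures of guanine-rich DNA or RNA, and the comparison asks which transcripts differ in abundance when it is present. The labels do not say whether replicates were grown separately, so the spread behind each p-value is that of these libraries and could be technical.

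Autophagy encloses cell material in a double membrane, the autophagosome, which then fuses with the lysosome. ATG8 proteins, of the LC3 and GABARAP branches, are small ubiquitin-like proteins that are coupled to a lipid of this membrane. Receptors bind ubiquitin or another mark on cargo at one end and ATG8 proteins at the other, so that the cargo is drawn into the forming membrane and, in most cases, degraded together with the receptor. WIPI1 binds the lipid PI3P on the forming membrane. The abundance of a transcript says nothing of how much cargo passes through the pathway.

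The deposited values, turned back into whole reads, summed to between 7371056 and 9386691 reads per PhenDC3 library and between 12574952 and 14292987 per DMSO library. Mitochondrial genes took 15.4% to 15.5% of reads in the PhenDC3 libraries and 3.72% to 3.96% in the DMSO libraries. DMSO replicate 3 stood apart from the other DMSO libraries, its reads giving a chi-square over degrees of freedom of 7.12 and 7.75 with them, while other pairs within a group gave 1.45 to 2.68. Of 7 mesenchymal markers VIM and FN1 were abundant, and their list summed to between 18960 and 19156 normalized counts in PhenDC3 and between 32161 and 35659 in DMSO, a sum made up mostly of these 2, both called lower. COL1A1 of the same list was called higher, at 83.2 ± 12.1 in PhenDC3 against 53.9 ± 9.0002 in DMSO (limma adjusted p = 0.00297), S100A4 was not called, and COL1A2, COL3A1 and THY1 were too low to be tested. The list of 6 epithelial markers (2 with a row) summed to between 74.8 and 83.4 in PhenDC3 and between 59.3 and 72.4 in DMSO. ELF3 was higher in PhenDC3, on 24 reads in all against 1 in DMSO, while CLDN4, most of the sum, was not called. Of 6 blood cell markers CD68 alone had a row, at 7.87 to 19.4 in PhenDC3 against 4.64 to 7.78 in DMSO, and 2 of 4 endothelial markers had one, summing to between 235 and 317 against between 227 and 302. The endothelial sum was nearly all EGFL7, which was not called, and VWF was too low to be tested. Scaling without mitochondrial genes is among the settings given at the end. The part of depth, mitochondrial share or these markers in the results below was otherwise not tested.

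Because PhenDC3 binds G quadruplexes, the RefSeq promoter windows of the genes (GRCh38.p14, from 250 bases before an annotated start to 50 after it) were searched for the usual quadruplex motif, 4 runs of 3 or more G with 1 to 7 bases between runs, on both strands. A window was found for all 10 genes, 15 windows in all, and 8 windows of 6 genes held the motif. The 2 OPTN windows overlap and share 1 stretch of matches, which is counted in both. Among all 35116 windows 24.997% held it, and among all 27305 genes 27.9% had at least 1 window that did. The windows that follow show the longest match, matches in genes that rose strongly, a SQSTM1 window that held none, and a match in a gene that did not pass the test. Capitals mark motif matches on either strand, and positions are counted from the annotated start, with the base before it as -1.
WIPI1, chr17:68457447-68457746, minus strand: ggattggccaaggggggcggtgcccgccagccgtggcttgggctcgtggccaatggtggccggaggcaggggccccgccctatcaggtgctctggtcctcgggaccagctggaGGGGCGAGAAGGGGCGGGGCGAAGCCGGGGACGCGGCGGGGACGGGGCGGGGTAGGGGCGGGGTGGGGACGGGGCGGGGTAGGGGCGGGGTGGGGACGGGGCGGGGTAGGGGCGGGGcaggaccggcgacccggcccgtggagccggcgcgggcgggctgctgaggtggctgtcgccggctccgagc
OPTN, chr10:13099913-13100212, plus strand: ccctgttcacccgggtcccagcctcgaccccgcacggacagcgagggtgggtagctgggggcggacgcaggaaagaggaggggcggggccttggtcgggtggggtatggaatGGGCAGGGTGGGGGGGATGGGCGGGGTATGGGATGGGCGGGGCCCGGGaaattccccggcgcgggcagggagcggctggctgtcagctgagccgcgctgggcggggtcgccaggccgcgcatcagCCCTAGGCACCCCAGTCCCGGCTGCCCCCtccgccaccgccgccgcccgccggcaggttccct
GABARAPL1, chr12:10212627-10212926, plus strand: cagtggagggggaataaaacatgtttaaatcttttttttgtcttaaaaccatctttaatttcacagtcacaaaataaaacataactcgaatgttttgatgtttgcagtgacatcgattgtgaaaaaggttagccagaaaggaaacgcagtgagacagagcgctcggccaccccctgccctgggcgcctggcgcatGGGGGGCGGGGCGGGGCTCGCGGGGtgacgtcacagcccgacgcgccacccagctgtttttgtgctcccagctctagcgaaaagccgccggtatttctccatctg
SQSTM1, middle of 3 starts, chr5:179806759-179807058, plus strand: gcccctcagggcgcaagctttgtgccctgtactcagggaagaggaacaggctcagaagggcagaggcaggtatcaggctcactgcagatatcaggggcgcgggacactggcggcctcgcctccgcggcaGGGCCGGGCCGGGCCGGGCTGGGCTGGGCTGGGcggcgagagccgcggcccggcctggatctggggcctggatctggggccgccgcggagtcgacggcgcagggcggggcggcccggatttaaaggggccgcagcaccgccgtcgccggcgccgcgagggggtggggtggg
SQSTM1, most downstream start, chr5:179820655-179820954, plus strand: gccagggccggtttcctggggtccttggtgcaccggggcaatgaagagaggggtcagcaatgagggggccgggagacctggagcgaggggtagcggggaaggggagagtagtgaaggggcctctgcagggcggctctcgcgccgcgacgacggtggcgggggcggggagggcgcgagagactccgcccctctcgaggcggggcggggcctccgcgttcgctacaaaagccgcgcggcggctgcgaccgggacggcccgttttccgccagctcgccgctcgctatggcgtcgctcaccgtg
CALCOCO2, chr17:48830785-48831084, plus strand: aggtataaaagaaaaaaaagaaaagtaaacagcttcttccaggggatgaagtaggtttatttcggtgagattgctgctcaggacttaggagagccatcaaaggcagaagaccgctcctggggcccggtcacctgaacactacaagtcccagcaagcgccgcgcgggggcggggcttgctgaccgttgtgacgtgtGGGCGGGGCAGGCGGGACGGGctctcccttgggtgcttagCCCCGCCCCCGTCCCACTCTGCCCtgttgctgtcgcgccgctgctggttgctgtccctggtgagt

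The WIPI1 window holds 1 unbroken stretch of overlapping matches, 117 bases from -137 to -21, made of repeated short G runs. In the OPTN window shown, a stretch of 48 bases from -138 to -91 lies on the gene strand. Another of 29 bases, from -13 to 15, lies on the other strand. Counted from the other annotated OPTN start, the same 48 bases lie from -57 to -10. GABARAPL1 has a stretch of 25 bases from -55 to -31. SQSTM1 has 3 annotated starts, and the windows of 2 hold a match, the one shown being 33 bases long, while the window of the most downstream start holds none. CALCOCO2 has a match on each strand, and MAP1LC3B has 1 of 24 bases. The windows of NBR1, TAX1BP1, GABARAP and GABARAPL2 held no match, which says only that these letters are not in these windows. Matches are thus found in windows of 5 of the 8 genes called higher and of 1 of the 2 that did not pass the test. SQSTM1 is counted there by its 2 more upstream starts only, and which start its RNA came from was not tested. A match is a description of sequence, not a site. The letters CACGTG, the core bound by the lysosomal regulator TFEB among other factors, were in no window of the 10 genes on either strand, against 7.26% of all windows. TGACNNNGC, a core of the antioxidant response element, was found in MAP1LC3B on the gene strand and in CALCOCO2 on the other strand, against 13.3% of all windows on either strand.

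Of the 10 genes 8 rose in PhenDC3 and 0 fell, while NBR1 and CALCOCO2 did not pass the test (limma on log2 of the normalized count plus 1, threshold 0.05 after Benjamini-Hochberg adjustment over all genes). Among all 16482 genes tested 59.6% were called, 29.2% of them higher and 30.4% lower as shares of the genes tested, so a call alone is common in these data. The same 8 genes were higher in every PhenDC3 library than in any DMSO library, as were 31.5% of the genes tested, and the groups did not overlap in either direction for 64.1%. A rise with a log2 fold change of 1 or more was seen in 9.87% of genes tested and in 4 of the 10, SQSTM1, GABARAPL1, MAP1LC3B and OPTN. Normalized counts are reads divided by the authors' size factor for the library, and they are given as mean ± SD over 3 libraries, with fold changes taken from the log2 scale of the value plus 1. In these bulk samples less RNA per cell and fewer cells of a kind cannot be told apart.

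**Figure D1:**
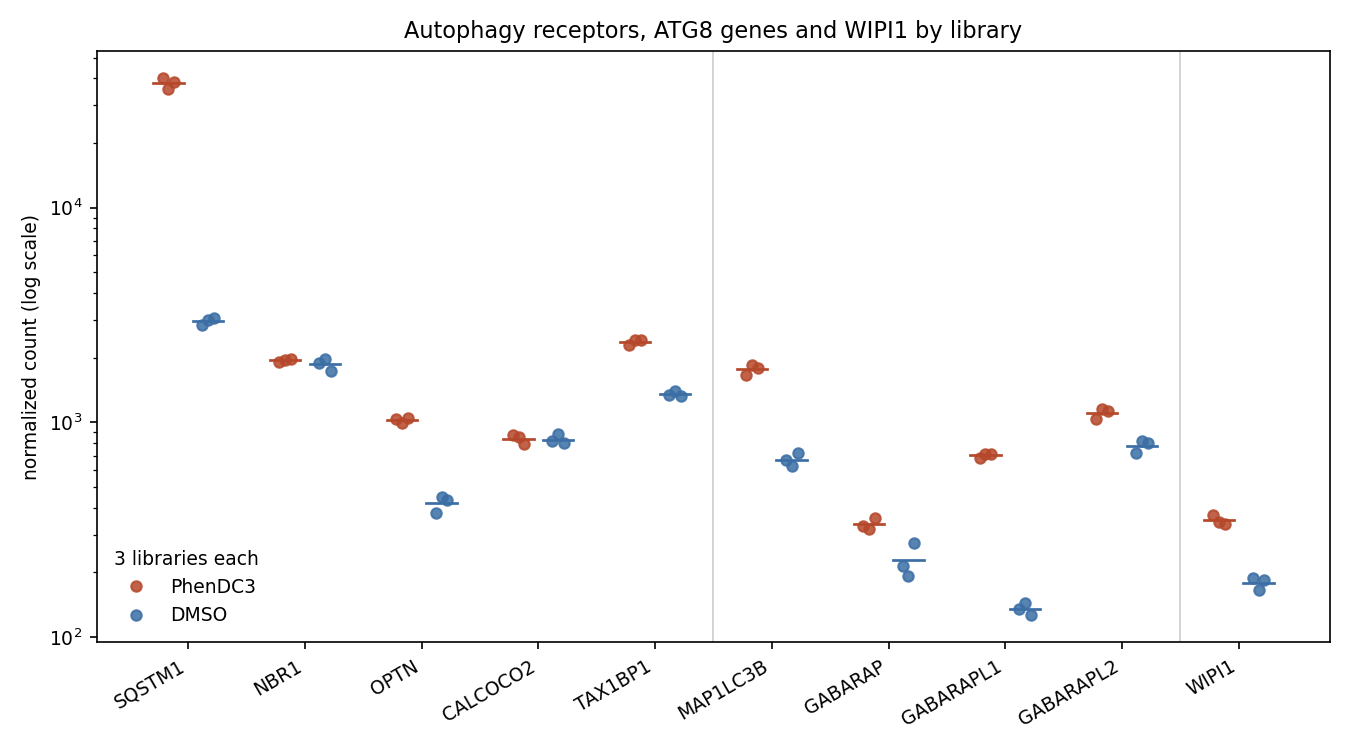
Normalized counts of the 10 genes in each of the 3 PhenDC3 libraries (red) and 3 DMSO libraries (blue) on a log axis, with a line at each group's mean. SQSTM1 lies at 35870 to 40335 in PhenDC3 and 2851 to 3056 in DMSO, and the groups overlap for NBR1 and CALCOCO2.

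SQSTM1 (ENSG00000161011, chromosome 5) encodes p62, the receptor that gathers ubiquitin-marked proteins into bodies and also binds KEAP1, the inhibitor of the regulator NRF2. Its normalized count was 40335, 35870 and 38349 in the PhenDC3 libraries, against 2851, 2992 and 3056 in the DMSO libraries. The groups were far apart compared with the spread within either, at 38185 ± 2237 in PhenDC3 and 2966 ± 105 in DMSO. The log2 fold change was 3.68 (SE 0.06, limma adjusted p = 1.68e-20), or 12.9-fold, and 74 of the 16482 genes tested had a larger one.

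MRNIP, which encodes a protein of DNA break repair, lies on the opposite strand to SQSTM1 and shares 1582 exonic bases with it in GENCODE release 29. It rose as well, to 7659.6 ± 176 normalized counts in PhenDC3 against 215 ± 8.30 in DMSO (limma log2 fold change 5.15, SE 0.06, adjusted p = 2.79e-22). MRNIP reads came to 19.5%, 21.0% and 19.7% of SQSTM1 reads in the PhenDC3 libraries and to 7.59%, 6.88% and 7.27% in the DMSO libraries. The library kit keeps strand, but the sources used here do not give the strand setting of the counting, so how reads on the shared bases were divided is uncertain for both genes. MGAT4B, a glycosyltransferase gene with 105 exonic bases in common with SQSTM1, rose 2.34-fold, to 4745 ± 246 against 2030.5 ± 178.

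OPTN (ENSG00000123240, chromosome 10) encodes optineurin, a receptor for damaged mitochondria and bacteria. It was at 1032, 994 and 1048 normalized counts in PhenDC3 and at 377, 448 and 437 in DMSO. All 3 PhenDC3 libraries were above all 3 DMSO libraries. OPTN rose 2.44-fold (limma log2 fold change 1.29, SE 0.08, adjusted p = 2.93e-11).

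TAX1BP1 (ENSG00000106052, chromosome 7) encodes a receptor that works with p62 and NBR1 in the removal of ubiquitin-marked aggregates. Its counts were 2283, 2425 and 2421 in PhenDC3 and 1343, 1393 and 1332 in DMSO. The groups did not overlap, and the rise was smaller than that of OPTN, at 1.75-fold (limma log2 fold change 0.81, SE 0.06, adjusted p = 7.34e-10). JAZF1, which shares 415 exonic bases with TAX1BP1 on the opposite strand, was at 128 ± 14.3 in PhenDC3 and 122 ± 20.7 in DMSO and did not pass the test (adjusted p = 0.673).

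NBR1 (ENSG00000188554, chromosome 17) encodes a large receptor that binds ubiquitin and p62. It had 1915, 1955 and 1977 normalized counts in PhenDC3 and 1897, 1984 and 1734 in DMSO, and the groups overlapped. Its log2 fold change was 0.06, with a 95% interval from -0.08 to 0.20 (limma adjusted p = 0.441). CALCOCO2 (ENSG00000136436, chromosome 17), which encodes NDP52, a receptor for bacteria and mitochondria, had 871, 852 and 796 in PhenDC3 and 816, 878 and 801 in DMSO. AC060780.1, which shares 463 exonic bases with NBR1, was at 33.8 ± 6.14 in PhenDC3 and 24.6 ± 6.26 in DMSO (adjusted p = 0.101), and was called without PhenDC3 replicate 2. The CALCOCO2 groups overlapped too, and the log2 fold change was 0.01 with an interval from -0.14 to 0.16 (limma adjusted p = 0.882). The intervals bound how far either transcript moved at this depth and do not show that it stayed the same.

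**Figure D2:**
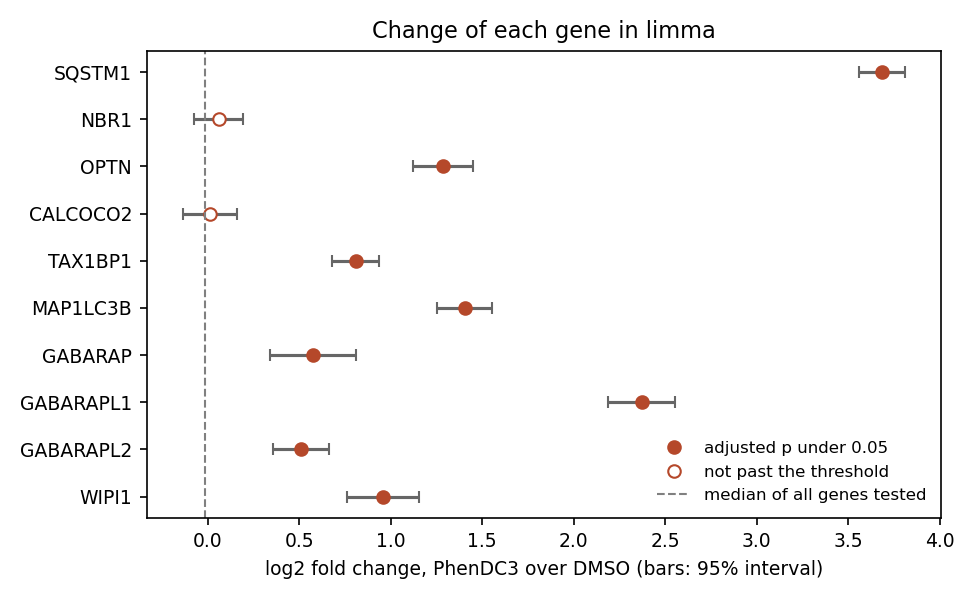
Log2 fold change of each gene, PhenDC3 over DMSO, with the 95% interval from limma; filled points passed an adjusted p of 0.05 and open points did not. SQSTM1 lies at 3.68 and GABARAPL1 at 2.37, while the intervals of NBR1 and CALCOCO2 include 0 and the dashed line marks the median of all genes tested, -0.02.

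SQSTM1 was then set against each other receptor within the same library, as the log2 ratio of the normalized counts, which does not depend on how libraries are scaled to each other beyond the pseudocount. The ratio of SQSTM1 to NBR1 was 4.40, 4.20 and 4.28 in the PhenDC3 libraries and 0.59, 0.59 and 0.82 in the DMSO libraries, a difference of 3.62. Against CALCOCO2 the difference was 3.67, against TAX1BP1 2.88 and against OPTN, the other receptor that rose more than 2-fold, 2.40. In each of the 4 ratios the 3 PhenDC3 libraries lay above the 3 DMSO libraries. An exact two-sided permutation test over libraries gave p = 0.1 for each, the smallest that 3 libraries against 3 allow, and 0.1 after adjustment over the 7 differences tested, so none can pass 0.05 in this design. In normalized counts SQSTM1 made up 86.0% ± 0.83 of the reads of the 5 receptors in PhenDC3 and 39.8% ± 1.46 in DMSO (SD, n = 3 each), with no correction for transcript length. The other 4 receptors together came to 6189.8 ± 77.5 in PhenDC3 and 4481 ± 204 in DMSO.

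**Figure D3:**
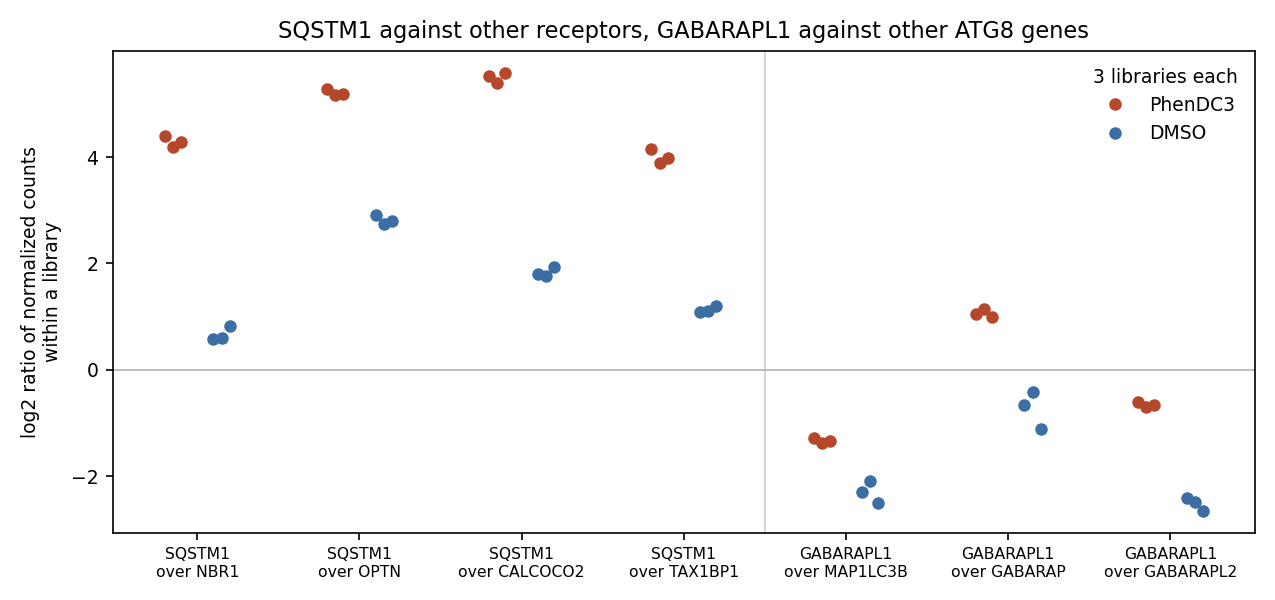
Log2 ratio of normalized counts within each library, for SQSTM1 over each other receptor (left) and GABARAPL1 over each other ATG8 gene (right), with 3 PhenDC3 libraries in red and 3 DMSO libraries in blue. All 7 ratios are higher in the PhenDC3 libraries, by 3.67 for SQSTM1 over CALCOCO2 and by 0.97 for GABARAPL1 over MAP1LC3B.

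All 4 ATG8 genes described rose, with GABARAPL1 rising most. GABARAPL1 (ENSG00000139112, chromosome 12), of the GABARAP branch, had 685, 712 and 710 normalized counts in PhenDC3 and 135, 145 and 126 in DMSO. The groups lay well apart, and the rise was 5.17-fold (limma log2 fold change 2.37, SE 0.09, adjusted p = 1.44e-14). MAP1LC3B (ENSG00000140941, chromosome 16) encodes LC3B, the ATG8 protein most used as a marker of autophagosomes. It had 1670, 1853 and 1799 in PhenDC3 and 667, 623 and 720 in DMSO. Its rise was 2.65-fold (limma log2 fold change 1.40, SE 0.07, adjusted p = 1.93e-12). FBXO31, which shares 150 exonic bases with MAP1LC3B on the opposite strand, rose 1.66-fold, to 444 ± 49.3 against 267 ± 7.85.

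GABARAPL2 (ENSG00000034713, chromosome 16), also called GATE-16, and GABARAP (ENSG00000170296, chromosome 17) rose least. GABARAPL2 had 1039, 1157 and 1128 normalized counts in PhenDC3 and 717, 817 and 800 in DMSO (limma log2 fold change 0.51, SE 0.07, adjusted p = 5.57e-06). GABARAP had 329, 320 and 358 in PhenDC3 and 214, 193 and 275 in DMSO. DMSO replicate 3 was the highest of its group for GABARAP, still below every PhenDC3 library, and the log2 fold change of 0.57 (SE 0.11, adjusted p = 0.000187) became 0.72 without it. The annotation places AC120057.2 on the same strand as GABARAP with 691 shared exonic bases; it was not analysed here, and reads of the shared bases are uncertain. All 8 genes called higher kept their call without DMSO replicate 3, MAP1LC3B at a log2 fold change of 1.46 and GABARAPL1 at 2.32.

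GABARAPL1, the ATG8 gene with the largest rise above, was also set against each other ATG8 gene in the within-library ratio. The direction of these differences follows from the changes already given. The difference was 0.97 against MAP1LC3B, 1.80 against GABARAP and 1.86 against GABARAPL2, with the PhenDC3 libraries above the DMSO libraries in each (exact permutation p = 0.1, the smallest possible, adjusted p = 0.1). The log2 ratio of GABARAPL1 to GABARAP was above 0 in PhenDC3, at 1.06 ± 0.08, and below 0 in DMSO, at -0.73 ± 0.36.

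Divided by the length of each gene's exons in GENCODE release 29, the levels of the 4 ATG8 genes can be set beside each other. GABARAPL2 had the highest level per kilobase in both groups, at 35.8% ± 0.59 of the sum of the 4 in PhenDC3 and 49.7% ± 2.92 in DMSO. MAP1LC3B made up 32.8% ± 0.53 in PhenDC3 and 24.5% ± 1.28 in DMSO, and GABARAP 14.5% ± 0.91 and 19.4% ± 2.60 in the same order. GABARAPL1 made up 16.9% ± 0.36 in PhenDC3 against 6.44% ± 0.73 in DMSO, and was the lowest of the 4 in DMSO but not in PhenDC3. With the longest coding transcript as the length its shares were 13.5% and 4.83%, higher again in PhenDC3.

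**Figure D4:**
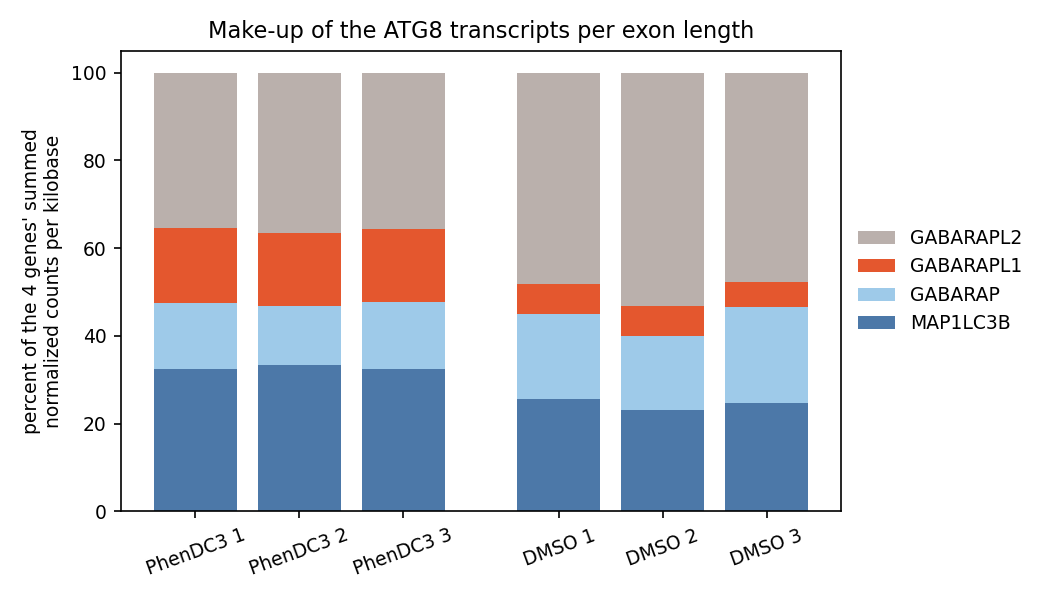
Share of each ATG8 gene in the summed normalized counts per kilobase of exon of the 4 genes, for each PhenDC3 library (left bars) and DMSO library (right bars). GABARAPL1 makes up 16.9% of the sum in PhenDC3 and 6.44% in DMSO, and GABARAPL2 35.8% and 49.7%.

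Over all 10 genes the order of levels per kilobase of exon began with SQSTM1 and GABARAPL2 in both groups. SQSTM1 was at 4989 ± 292 normalized counts per kilobase in PhenDC3 and 388 ± 13.7 in DMSO, and GABARAPL2 at 365 ± 20.2 and 256 ± 17.7. In PhenDC3 MAP1LC3B followed at 334 ± 17.7, within 2 SD of GABARAPL2, then TAX1BP1 at 259 ± 8.82, NBR1 at 232 ± 3.76, OPTN at 199 ± 5.38, GABARAPL1 at 172 ± 3.61 and GABARAP at 148 ± 8.80. WIPI1 at 103 ± 5.21 and CALCOCO2 at 101 ± 4.64 came last and did not differ beyond their spread. In DMSO NBR1 came next at 223 ± 15.1, followed by TAX1BP1 at 148 ± 3.56 and MAP1LC3B at 126 ± 9.11. GABARAP at 100.4 ± 18.8 and CALCOCO2 at 99.8 ± 4.94 could not be told apart, and OPTN at 81.9 ± 7.51, WIPI1 at 52.8 ± 3.41 and GABARAPL1 at 33.1 ± 2.26 were lowest. With the longest coding transcript as the length the first 5 places were the same in both groups, while lower places changed, GABARAPL1 standing above OPTN and CALCOCO2 above GABARAP and WIPI1 in PhenDC3.

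Other members of the ATG8 family were near the limit of detection. MAP1LC3A had 3.55, 2.98 and 3.94 normalized counts in PhenDC3 and 0, 1.55 and 1.38 in DMSO, too few to be tested. MAP1LC3B2, a near copy of MAP1LC3B, was at 2.37 or less in every library. Reads from near copies can be shared between genes. MAP1LC3C and GABARAPL3 had no row in the deposited table and so were not analysed.

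WIPI1 (ENSG00000070540, chromosome 17) rose 1.94-fold. It had 369, 345 and 335 normalized counts in PhenDC3 and 188, 166 and 185 in DMSO, with no overlap (limma log2 fold change 0.96, SE 0.09, adjusted p = 3.26e-08). ARSG, which shares 828 exonic bases with WIPI1 on the opposite strand, was at 48.9 ± 3.43 in PhenDC3 and 39.0 ± 4.02 in DMSO and did not pass the test (adjusted p = 0.125).

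To place the 10 genes, 73 other genes of autophagy were taken in 8 lists, of which 70 had a row and 67 were tested. Of these 31 were higher and 13 lower, with a median log2 fold change of 0.15 against -0.02 over all genes tested. The shares of all genes tested that were called, 29.2% higher and 30.4% lower, are the background for each count below, and the lists are described with no test of their own.

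**Figure D5:**
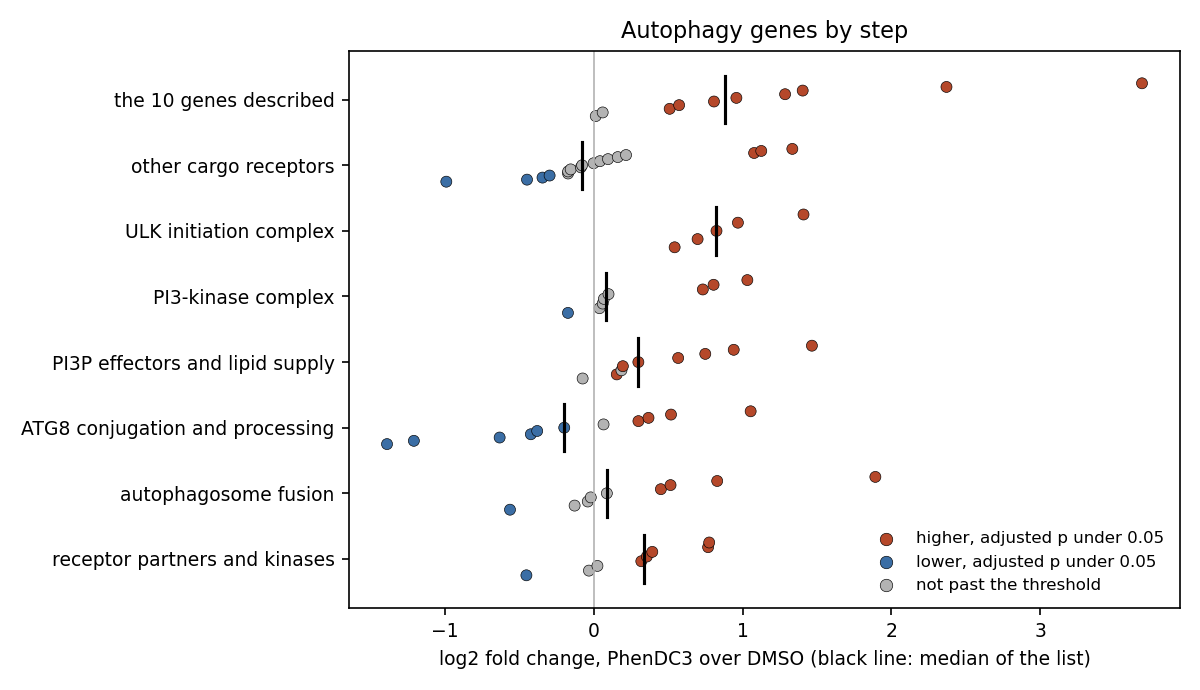
Log2 fold change of each tested gene, PhenDC3 over DMSO, by step of autophagy, with the 10 genes described in the top row; red is higher and blue lower at an adjusted p under 0.05, and the black line is the list's median. The ULK initiation complex lies wholly above 0, with a median of 0.83, and the conjugation genes lie on both sides, with a median of -0.20.

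The ULK kinase complex starts autophagosome formation, and its 5 genes all rose, with a median log2 fold change of 0.83. ULK1, the kinase, rose 2.66-fold, to 1441 ± 91.7 normalized counts in PhenDC3 against 541 ± 25.7 in DMSO (limma adjusted p = 2.01e-12). ATG13 and ATG101, which form its regulatory part, rose 1.77-fold and 1.62-fold. The calls of all 5 held when any 1 library was left out.

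In the PI3-kinase complex, which makes PI3P, 3 of 8 genes rose and 1 fell, with a median of 0.08. AMBRA1, a regulator of the complex, rose 2.05-fold, and ATG14 and UVRAG, which direct it to autophagosomes or endosomes, rose 1.75-fold and 1.66-fold. The catalytic subunit gene PIK3C3 was at 729 ± 67.2 in PhenDC3 and 709 ± 65.3 in DMSO (limma adjusted p = 0.712). PIK3R4, the regulatory subunit, fell to 0.887 of its DMSO level (limma adjusted p = 0.0420). The call was lost without PhenDC3 replicate 1 or 3 or without DMSO replicate 1 or 2 (limma adjusted p = 0.0855 to 0.180). It was also lost in DESeq2 and the authors' deposited table, with no filter and with no variance trend. Either scaling that leaves out mitochondrial genes lost it too.

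Among 9 further genes of PI3P effectors and lipid supply, to which WIPI1 belongs by function, 7 rose and none fell, with a median of 0.30. ZFYVE1, whose product DFCP1 marks the sites where autophagosomes form, rose 2.76-fold, to 871 ± 41.8 in PhenDC3 against 315 ± 27.9 in DMSO. WDR45, a relative of WIPI1, rose 1.92-fold and the lipid transfer protein gene ATG2A 1.68-fold. The smallest rises, of WDR45B and VMP1, lost their calls when some single libraries were left out, which gave between 5 and 7 rises.

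The enzymes that process ATG8 proteins and couple them to lipid went both ways, with 4 of 11 higher, 6 lower and a median of -0.20. ATG12, a ubiquitin-like protein needed for the coupling, rose 2.08-fold, to 1100 ± 28.96 in PhenDC3 against 529 ± 21.7 in DMSO. The protease gene ATG4B rose 1.43-fold and ATG7, the activating enzyme, 1.29-fold. ATG16L2 fell to 0.382 of its DMSO level, the protease gene ATG4C to 0.433 and ATG5, the partner of ATG12, to 0.746. ATG3, ATG4D and ATG10 lost their calls when some single libraries were left out, giving between 3 and 4 rises and between 4 and 6 falls.

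Of 17 other cargo receptors tested 3 rose and 4 fell, with a median of -0.08. TOLLIP, a receptor with a ubiquitin-binding domain, rose 2.52-fold, to 781 ± 55.7 in PhenDC3 against 309 ± 27.3 in DMSO. WDFY3, a large protein of aggregate clearance that binds p62, rose 2.18-fold, and CALCOCO1, a paralog of CALCOCO2, rose 2.11-fold where CALCOCO2 did not pass the test. The difference between these paralogs was not tested. The mitochondrial receptor genes BNIP3 and BNIP3L, both known targets of the hypoxia response, fell to 0.503 and 0.788 of their DMSO level, and RTN3, a receptor for the endoplasmic reticulum, to 0.733. PHB2, an inner mitochondrial membrane receptor, fell to 0.814. Without DMSO replicate 3 the list had 5 rises, FUNDC1 and FKBP8 being added (adjusted p = 0.0385 and 0.0122), and without PhenDC3 replicate 2 it had 4, FKBP8 being added (adjusted p = 0.0353).

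Among 9 tested genes of fusion with the lysosome 4 rose and 1 fell, with a median of 0.09. PLEKHM1, an adaptor that binds ATG8 proteins and the GTPase RAB7, rose 3.71-fold, to 980 ± 58.2 in PhenDC3 against 263 ± 11.7 in DMSO. EPG5, a tether of the same step, rose 1.78-fold and RAB7A 1.43-fold, while the SNARE gene STX17 fell to 0.677 of its DMSO level. STX17 was the one call of the list in that direction. Its DMSO libraries were at 210, 227 and 138 normalized counts, the lowest being replicate 3, against 125 to 128 in PhenDC3.

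Of 8 genes for partners and kinases of the receptors 5 rose and 1 fell. KEAP1, which binds p62, rose 1.71-fold, to 1046 ± 68.0 in PhenDC3 against 611 ± 47.5 in DMSO. PRKCI, a kinase that binds the PB1 domain of p62, rose 1.28-fold. TBK1, the kinase that phosphorylates OPTN and p62, was at 716 ± 76.5 in PhenDC3 and 571 ± 9.40 in DMSO, a rise of 1.25-fold (limma adjusted p = 0.00197). CSNK2A1, a kinase gene, fell to 0.731 of its DMSO level.

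The genes most like SQSTM1 over the 6 libraries, by the root mean square difference of log2 values set to the DMSO mean, were FBXO32, NMRAL2P, OSGIN1, IL24 and MTRNR2L8, at 0.08 to 0.16 among 9833 genes with a mean of 100 or more. FBXO32, a ubiquitin ligase subunit gene, was at 2155 ± 44.6 normalized counts in PhenDC3 and 156 ± 9.25 in DMSO. OSGIN1, a known NRF2 target, was at 650 ± 86.2 in PhenDC3 and 48.2 ± 1.71 in DMSO. For GABARAPL1 the nearest were CREBRF, MTND6P4, MALAT1, SKIL and IL1B, at 0.06 to 0.08. CREBRF, a regulator gene, was at 617 ± 24.6 in PhenDC3 and 120 ± 12.8 in DMSO. MTRNR2L8 and MTND6P4 are nuclear copies of mitochondrial genes, so their reads are uncertain. The measure is set mainly by the size of the change between the groups, and with 2 groups it says no more of these genes than that.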

How the data were processed

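RNA of 6 HT-1080 libraries was compared, 3 with PhenDC3 and 3 with DMSO, grouped by the labels. The submitters' processing notes name DESeq2 1.18.1, featureCounts, STAR 2.7, TopHat2 2.0.11, CASAVA, Cuffdiff, Cufflinks 2.2.1 and hg19, with no roles. The kit was a stranded mRNA one, per the labels' protocols. The sources used here do not give the strand setting or annotation used in counting. The deposited signal values are normalized read counts: in each column 100% of values were whole when divided by the lowest non-zero one (relative tolerance 1e-06), so the authors had scaled each library by 1 factor. Deposited log2 fold changes (PhenDC3 over DMSO) and each deposited p-value served as an alternative.

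Genes were tested with limma 3.58.1 (R 4.3.3), with empirical Bayes moderation and a variance trend, on log2(value + 1), for those with a mean of 5 or more. Moderation draws each gene's variance toward that of genes of like mean, so a limma p-value does not rest on that gene's spread alone. The pseudocount understates changes of low genes. edgeR 4.0.16 and DESeq2 1.42.0 were run on the recovered whole reads. The limma step was also run on simulated reads. Far fewer genes changed there than were called here, so no rate of false calls is taken from it. The 10 genes, the lists, the filter and the tests were chosen with earlier results of these data known. Named genes were the 10, up to 3 called genes of each list per direction with the smallest adjusted p, the 5 nearest patterns of SQSTM1 and of GABARAPL1, and annotated overlaps and copies; others were named after their values were seen. One gene that this rule takes is not reported here. Exon lengths and overlaps came from GENCODE release 29 (GRCh38), which is not the submitters' build, so no gene coordinates from it are printed. Chi-square tests of reads found no libraries that agreed within sampling noise. Python 3.11.15, pandas 2.3.3 and matplotlib 3.10.9 were used.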

Additional observations from a re-analysis of the deposited data

How the results depend on the processing

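All 10 genes kept their direction where called, and their side of the threshold, in 60 of 60 values that left out 1 library and in 110 of 110 values under the other settings, and the number called was 8 throughout. The other settings were pseudocounts of 0.5 and 5, no filter, a mean of 10 or more, no variance trend, edgeR, DESeq2, the authors' deposited table, scaling without mitochondrial genes, scaling to the total of reads outside them and a replicate block. Scaling to the total of reads outside mitochondrial genes and the length alternative were chosen after seeing the data. With no variance trend the limma adjusted p was larger, at 9.53e-06 for SQSTM1, 3.53e-05 for GABARAPL1 and 0.0171 for GABARAP. The count of genes called ranged from 8965 to 9564 of 16482 tested when 1 library was left out. With DESeq2 it was 8418 of 21593 tested. The authors' deposited table gave the same count of 21593, a share of 39.0%. With the longest coding transcript as length, MAP1LC3B made up 28.97% of the ATG8 sum in PhenDC3 and 20.4% in DMSO, GABARAP 9.03% and 11.3%, GABARAPL1 13.5% and 4.83%, and GABARAPL2 48.5% and 63.4%, as the construction of the lengths sets. The labels do not say that replicate numbers pair the libraries, and the correlations between residuals of libraries with one number were 0.008, 0.071 and 0.027. With the number as a replicate block 10155 genes were called, and the 7 differences between genes kept their values, with an exact sign-flip p = 0.25, the smallest 3 pairs allow. Among other genes named by the stated rule, 271 of 276 values without 1 library and 499 of 506 under other settings kept their call. Those that did not were of PIK3R4, ARSG and AC060780.1. Genes named outside that rule are not in these counts. Of them WDR45B, VMP1, ATG3, ATG4D, ATG10, FUNDC1 and FKBP8 changed call without some single libraries, as given above. The low counts of MAP1LC3A and MAP1LC3B2 limit what can be said of them.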
